A study of Homo sapiens with 18 samples.

Results

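Transfer RNAs for leucine, serine and selenocysteine carry a long variable arm, an extra stem between the anticodon stem and the T stem that most other tRNAs lack. The 57 rows described here are the tRNA-Leu, tRNA-Ser and tRNA-SeC gene rows of a table of 175935 noncoding RNA rows from HEK293T cells. They were chosen by name and by a row length of at most 500 nt, and tRNA-Leu-CAA, whose genes carry an intron, was left out. There were 27 Leu, 27 Ser and 3 SeC rows, out of 492 rows with a nuclear tRNA anticodon name.

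HEK293T is a human embryonic kidney cell line. Cells had received either a scramble siRNA (control) or an siRNA against SSB (siSSB), in both cases with the transfection reagent RNAiMAX for 48 hours. Small RNA was taken from whole cells (total), the nuclear fraction (nuc) or the cytoplasmic fraction (cyto), with 3 biological replicates in each of the 6 groups, so 18 libraries in all. All 18 titles mark the libraries as made with PNK, the end-repairing enzyme polynucleotide kinase, and there was no library without it. SSB has no row under its own name in the table, so its depletion was not measured here and siSSB is used as the label of the libraries.

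SSB encodes La, a protein that binds the run of uridines at the 3′ end of RNA polymerase III (Pol III) products such as precursor tRNAs, and shields that end until it is cut. Most tRNA genes are transcribed from internal promoter elements, the A box and the B box, and transcription stops at a run of T on the coding strand. In most precursor tRNAs a 5′ leader is removed by RNase P. The 3′ trailer is then cut off or trimmed, CCA is added, and the tRNA is exported to the cytoplasm. Serine tRNAs and selenocysteine tRNA are both charged by seryl-tRNA synthetase, which reads the long variable arm, and the serine on selenocysteine tRNA is later turned into selenocysteine.

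Gene sequences were read from the hg38 reference at the position of each named row, after removal of the 25 nt flank that the deposited rows add on each side. The first set holds the leucine genes on which the results turn, 5′ to 3′ and in the DNA letters of the RNA strand. Capitals mark the variable region.
Leu-TAG-1-1, chr17:8120314-8120395, minus strand: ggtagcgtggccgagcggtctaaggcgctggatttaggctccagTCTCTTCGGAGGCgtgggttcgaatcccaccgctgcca
Leu-TAG-3-1, chr14:20625370-20625451, plus strand: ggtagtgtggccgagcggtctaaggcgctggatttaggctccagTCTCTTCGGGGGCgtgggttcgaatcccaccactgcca
Leu-AAG-1-3, chr5:181097474-181097555, minus strand: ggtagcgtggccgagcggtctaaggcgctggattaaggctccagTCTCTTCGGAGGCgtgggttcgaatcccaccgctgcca
Leu-CAG-1-1, chr1:161530342-161530424, minus strand: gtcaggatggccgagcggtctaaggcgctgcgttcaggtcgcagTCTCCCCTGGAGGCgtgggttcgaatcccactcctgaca
Leu-TAA-3-1, chr6:27721119-27721201, minus strand: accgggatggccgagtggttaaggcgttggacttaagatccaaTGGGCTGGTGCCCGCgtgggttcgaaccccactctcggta
Leu-TAA-4-1, chr6:27230555-27230637, minus strand: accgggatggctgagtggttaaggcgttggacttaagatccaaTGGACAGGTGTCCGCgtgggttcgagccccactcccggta

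The second set holds the serine genes, with the variable region again in capitals, and the main selenocysteine gene, with the anticodon in capitals. TGA-1-1 stands beside TGA-3-1 because they share an anticodon but differ widely in sequence and in counts.
Ser-TGA-1-1, chr10:67764503-67764584, plus strand: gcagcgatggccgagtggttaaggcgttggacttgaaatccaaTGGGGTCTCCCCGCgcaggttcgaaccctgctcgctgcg
Ser-TGA-3-1, chr6:26312596-26312677, minus strand: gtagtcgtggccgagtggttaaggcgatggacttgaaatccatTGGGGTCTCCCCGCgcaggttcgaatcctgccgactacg
Ser-AGA-3-1, chr6:27532208-27532289, plus strand: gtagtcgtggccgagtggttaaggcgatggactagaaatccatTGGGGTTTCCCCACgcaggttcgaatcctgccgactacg
Ser-CGA-3-1, chr6:27672450-27672531, minus strand: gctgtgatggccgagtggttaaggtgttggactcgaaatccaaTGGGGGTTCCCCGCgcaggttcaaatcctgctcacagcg
Ser-GCT-3-5, chr15:40593825-40593906, minus strand: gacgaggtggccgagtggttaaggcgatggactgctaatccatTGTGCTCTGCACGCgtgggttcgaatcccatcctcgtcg
SeC-TCA-1-1, chr19:45478602-45478687, minus strand: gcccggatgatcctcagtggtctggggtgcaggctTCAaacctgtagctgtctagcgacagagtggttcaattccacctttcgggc

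In the GENCODE annotation of hg38, the loci of Leu-TAG-1-1, Leu-TAG-3-1, Leu-TAA-4-1, the chromosome 6 Leu-TAA-3-1, Ser-TGA-1-1, Ser-CGA-3-1 and the chromosome 15 Ser-GCT-3-5 overlapped no other gene. SeC-TCA-1-1 lies in an intron of ERCC1, a DNA repair gene, on the same strand. SeC-TCA-2-1, at chr22:44150657-44150743, lies in an intron of PARVB and in an exon of a lncRNA.

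The anticodon in the row name was found in the gene sequence of 57 of 57 members. Gene length was 72 to 87 nt with a median of 82 nt among members, against a median of 73 nt among the 435 other tRNA rows. The long arm itself was read in the 51 Leu and Ser members of 80 nt or more, where the variable region had 13 to 15 nt. The label did not hold for all rows. Ser-AGA-5-1, at chr7:149608376-149608447, is 72 nt long with a variable region of 5 nt, yet held 9143 counts over the 18 libraries. Leu-AAG-5-1 (73 nt) and SeC-TCA-3-1 (74 nt) had 0 counts in all 18 libraries, and Leu-AAG-8-1 and Ser-AGA-6-1 had 13 and 8 counts in all. These last 4 rows were not tested.

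Many members cannot be told apart by sequence. The 57 genes hold 38 distinct sequences, and a median of 13.2% of a member's 30-nt stretches was found in no other tRNA row. Positions are counted from 1 at the 5′ end of the gene. Leu-AAG-1-3 and Leu-TAG-1-1 differ by the single substitution A35T, which lies in the anticodon, and share their last 47 nt, so a read from the 3′ side of either gene has no mark of its origin. Leu-TAG-1-1 and Leu-TAG-3-1 differ by C6T, A54G and G76A. Ser-TGA-3-1 and Ser-AGA-3-1 differ by T34A, C50T and G56A, whereas Ser-TGA-3-1 and Ser-TGA-1-1, which share an anticodon, differ at 11 positions. Ser-TGA-1-1 had 90.6% of its 30-nt stretches to itself, Leu-TAG-1-1 had 22.6% and the Leu-AAG-1-3 and Leu-CAG-1-1 copies had 0%.

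The 25 nt after the gene were searched for the letters TTTT on the gene's own strand, since a T run ends Pol III transcription and gives the RNA the U run that La binds. TTTT was found behind 45 of 57 members (78.9%) and behind 341 of 435 other tRNA rows (78.4%). By contrast it stood in the 25 nt before 10.5% of members and 11.3% of other tRNA rows. Members without TTTT after the gene included all 3 SeC rows, Leu-TAA-4-1, Ser-AGA-3-1, the chromosome 6 copy of Ser-CGA-2-1 and the chromosome 17 Ser-GCT-3-5. This says only that these letters are not within 25 nt. The trailers of 4 genes are shown with T runs of 4 or more in capitals.
Leu-TAG-1-1 trailer: ggctggagTTTTTctggtggattac
Leu-TAG-3-1 trailer: gtggtacgTTTTagcacaacaagga
Leu-TAA-4-1 trailer: agcgttggtgtgtactttgacgttt
Ser-TGA-1-1 trailer: gaagcgggtgctcttaTTTTTTcta

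The B box letters GTTCGA, followed by any base and then TC, were searched on both strands. They were present on the coding strand of 41 of 57 members (71.9%), against 122 of the 435 other rows (28.0%) and 33.1% of all 492 tRNA rows. They were on the opposite strand of none. Where a printed gene holds them, they are in the stretch gttcgaatc after the variable region. The printed genes of Leu-TAA-3-1, Leu-TAA-4-1, Ser-TGA-1-1, Ser-CGA-3-1 and SeC-TCA-1-1 do not hold them.

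Column sums were 21565995 to 44712500 in cyto, 47662310 to 89632050 in total and 98928007 to 158244813 in nuc libraries. A read is counted in every row it overlaps, so these sums are not read numbers. Each tRNA row takes in the gene and its flanks, so precursor, mature tRNA and fragments were not separated. A level given for a tRNA is that of the counts of its row, not of mature tRNA alone. The nuclear tRNA rows together held 37782 to 1255170 counts per library, and the members 4409 to 101144. The siSSB total replicate 2 library stood apart in its TMM factor, at 1.75 against 0.642 to 1.07 in the other 5 total libraries. As a check of the fractions, 19 of 77 rows of nuclear marker RNAs were higher and 0 were lower in nuc than in cyto in control cells (TMM scaling). Of all rows 9.21% were higher and 14.1% lower. The 77 rows carry only the names MALAT1, NEAT1, SNORD3A, SCARNA2, RNU6-1 and RNU6ATAC, so they are not separate genes, and the rest were not called. Of 7 cytoplasmic marker rows 4 were lower and 1, the signal recognition particle RNA RN7SL1, was higher, so that marker went against its fraction. Bulk libraries cannot tell fewer cells from less RNA per cell, and the p-values measure the spread between these 3 replicates.

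Among the members, which leave out Leu-CAA, leucine rows were the bulk of the nuclear counts and serine rows the bulk of the cytoplasmic counts. The Leu-CAA rows held 42351, 24825 and 76124 counts in control cyto and 949, 412 and 375 in control nuc. The Leu members held fewer in cyto, with 11902, 9433 and 31418. In control nuc, Leu rows made up 66.3% ± 3.82 (SD, n = 3) of member counts, and in control cyto they made up 20.2% ± 9.39. Ser rows made up 33.3% ± 3.75 in control nuc and 78.9% ± 9.35 in control cyto, and the groups did not overlap. SeC rows stayed a small share, at 0.433% ± 0.149 in control nuc and 0.849% ± 0.157 in control cyto.

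The largest single contributions came from 1 leucine row and 1 serine row. Leu-TAG-1-1 alone gave 51.8% ± 4.93 of member counts in control nuc, 48.9% ± 9.94 in control total and 11.4% ± 8.72 in control cyto. It was the highest of all 492 tRNA rows in each of the 3 control nuc libraries. The leucine majority in nuc rested on this row, which gave 3210, 3195 and 3207 of 4272, 4134 and 3932 Leu counts. The remaining Leu rows together held fewer counts than the Ser rows, which had 2595, 1927 and 1748. Ser-TGA-1-1 gave 41.1% ± 5.82 of member counts in control cyto but 7.91% ± 0.981 in control nuc. It did not carry the serine pattern alone. The Ser-AGA rows together gave 24.13%, 27.35% and 19.08% in the 3 control cyto libraries and 7.62%, 5.27% and 4.55% in control nuc. These shares depend on how reads shared by several genes were assigned, and for Leu-TAG-1-1 most of the gene is shared with Leu-AAG-1-3.

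The 9 isoacceptors, meaning the rows with 1 anticodon summed, differed widely in level. The Ser-AGA sum includes Ser-AGA-5-1, the row with the short variable region. In control total RNA, Leu-TAG was highest with counts of 43399, 22551 and 16552 in replicates 1, 2 and 3, a mean of 450.9 ± 269.5 CPM, the count relative to the TMM-scaled column sum. The next was Ser-TGA with 10184, 9095 and 11024 counts (160.5 ± 16.4 CPM). Ser-GCT followed with 8718, 4648 and 4334 counts (96.1 ± 48.4 CPM) and Ser-AGA with 4896, 4117 and 5569 (77.1 ± 10.4 CPM). Each of these 3 overlapped its neighbour in this order, and Leu-TAG lay above all of them in every library. Leu-AAG had 27.2 ± 5.82 CPM and Leu-CAG 19.8 ± 6.85 CPM, again with overlap. At the low end, Leu-TAA had 7.09 ± 2.76 CPM, SeC-TCA 4.83 ± 0.627 CPM and Ser-CGA 2.56 ± 0.799 CPM.

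Depletion was first compared in total RNA. All 53 tested members were below 0 on the log2 scale, siSSB over control, with a median of -0.62 and a range from -1.92 to -0.03. The median over all 13883 rows tested was -0.01, and that of the other tRNA rows was -0.86. This direction depended on the scaling, since 30 of 53 members were below 0 with library size alone or when scaled to the total of all features of at most 500 nt (small features), and 23 of 53 when scaled to the snoRNA total. Those scalings moved the median of all rows to 0.55, 0.55 and 0.72, and the miRNA total moved it to -0.54. The median of members was -0.37 without siSSB total replicate 2 and -0.40 without control total replicate 1, and 45 of 53 were below 0 without siSSB total replicate 1. Relative to the median of all rows, the median of members was -0.64 to -0.59 over all 7 scalings and tests compared. A change of scale moves all rows by nearly the same amount, so this difference had to stay nearly constant. It is no check of the direction.

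Of the 53 members 3 fell in total RNA by edgeR's quasi-likelihood test (adjusted p under 0.05), which is 5.66% against 0.972% of all rows tested and 10.6% of the other tRNA rows. None rose. In 21 of 53 members (39.6%) all 3 siSSB libraries were below all 3 control libraries, against 9.05% of all rows. Unadjusted, 27 of 53 members had a p under 0.05, against 2301 of all 13883 rows.

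Leu-TAG-3-1, a leucine tRNA that reads CUA codons, had 812, 542 and 508 counts in control total and 155, 149 and 281 in siSSB total. Every siSSB library was below every control library. Its level fell from 10.0 ± 3.59 to 2.89 ± 1.33 CPM, a log2 fold change of -1.80 ± 0.35 (SE), with an adjusted p of 0.0304. Its reads were also counted in a longer lncRNA row on the same strand, which had 5736 counts in all against 5617 for the tRNA.

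Ser-CGA-3-1, a serine tRNA for UCG codons, had 88, 70 and 57 counts in control total and 16, 18 and 34 in siSSB total. The groups were again apart. It fell from 1.16 ± 0.354 to 0.335 ± 0.169 CPM, by 1.79 ± 0.35 on the log2 scale (adjusted p = 0.0304).

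The chromosome 6 copy of Leu-TAA-3-1, for UUA codons, was a rare RNA with 19, 27 and 22 counts in control total and 7, 5 and 10 in siSSB total. It fell by 1.74 ± 0.38 on the log2 scale (adjusted p = 0.0449). The second row of this name, at chr11:59551755-59551837, has another sequence. It had 72, 65 and 47 counts in control total and 23, 28 and 33 in siSSB total, with a log2 fold change of -1.28 ± 0.29 (adjusted p = 0.0588).

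These 3 calls depended on single libraries and on the scaling. Without control total replicate 2, siSSB total replicate 1 or siSSB total replicate 2, none of the 3 was called, with adjusted p of 0.0745, 0.0968 and 0.0806 for Leu-TAG-3-1, 0.0762, 0.0963 and 0.114 for Ser-CGA-3-1, and 0.171, 0.0987 and 0.157 for Leu-TAA-3-1. The number of members called was 0 without each of these 3 libraries, 9 without control total replicate 3 and 11 without siSSB total replicate 3. Of all rows 286 of 16154 were called without control total replicate 3 and 303 of 16489 without siSSB total replicate 3. With the snoRNA total none of the 3 was called, with adjusted p of 0.181 for Leu-TAG-3-1, 0.261 for Ser-CGA-3-1 and 0.290 for Leu-TAA-3-1. Ser-CGA-3-1 was also lost with library size alone (0.112) and the small-feature total (0.113). Leu-TAA-3-1 was lost with these (0.188 and 0.196), with RLE factors (0.0537) and with the replicate number as a block (0.0657).

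**Figure D1:**
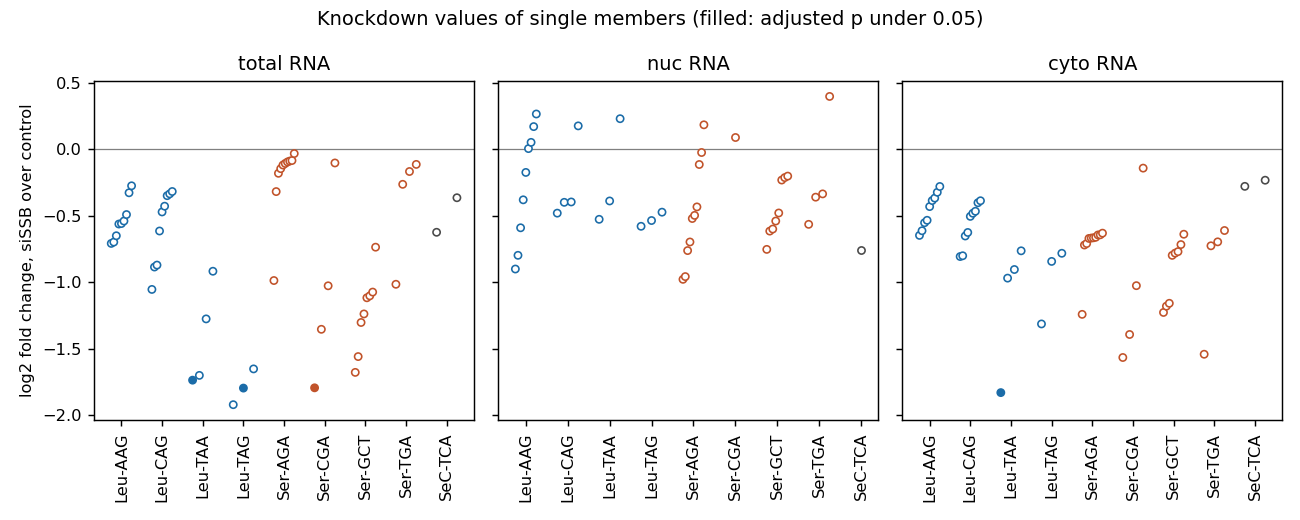
Log2 fold change, siSSB over control, for each tested member by anticodon in total, nuc and cyto RNA (TMM scaling). Filled points had an adjusted p under 0.05. In total and cyto RNA all 53 points lie below 0 (30 and 52 with library size alone), and in nuc RNA 34 of 43 do (28 with library size alone).

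The member with the most counts in control total RNA was not called. Leu-TAG-1-1, also for CUA codons, had 42040, 21676 and 15828 counts in control total and 7093, 3286 and 12218 in siSSB total. All siSSB libraries were below all control libraries, although the control libraries themselves were widely spread. Its mean went from 434.9 ± 262.7 to 114.9 ± 75.3 CPM, with a log2 fold change of -1.92 ± 0.56 and an adjusted p of 0.116 by edgeR's test. DESeq2 gave an adjusted p of 0.00707 for the same row. Within edgeR the row passed with library size alone (-1.44, adjusted p = 0.00281), the small-feature total (0.00408), the snoRNA total (0.000536), the miRNA total (0.0267), no filter (0.00128) and without control total replicate 3 (-2.25, 0.0428), so the call depended on the test, the scaling, the filter and 1 library.

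The members with the highest counts for the other anticodons differed in the size of their change, and none was called. That of Ser-CGA, the chromosome 6 copy of Ser-CGA-2-1, had 64, 56 and 50 counts in control total and 25, 18 and 47 in siSSB total. Ser-GCT-2-1, a serine tRNA for AGC and AGU codons at chr11:66348120-66348201, had 3408, 2039 and 1911 counts in control total and 758, 528 and 1200 in siSSB total. The groups did not overlap, and the log2 fold change was -1.68 ± 0.41 (adjusted p = 0.0737). Leu-TAA-4-1 had 333, 157 and 194 counts in control total and 64, 40 and 123 in siSSB total, with a log2 fold change of -1.70 ± 0.44 (adjusted p = 0.0812). Ser-TGA-1-1 had 8838, 7833 and 9454 counts in control total and 3947, 5472 and 4853 in siSSB total, again apart, with -1.02 ± 0.29 (adjusted p = 0.104).

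The highest rows of 3 more anticodons were not called either. The first Leu-AAG-1-3 copy, for leucine CUU and CUC codons, had 520, 494 and 499 counts in control total and 369, 300 and 450 in siSSB total, with -0.54 (adjusted p = 0.351). The Leu-CAG-1-1 copy at chr1:161530342-161530424, for CUG codons, had 516, 315 and 342 counts against 171, 195 and 257, with -1.05 ± 0.30 (adjusted p = 0.103). Ser-AGA-2-6 at chr6:26327589-26327670 had -0.32 and Ser-AGA-3-1 had -0.03, the value nearest to 0 of all members.

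SeC-TCA-1-1, the tRNA that inserts selenocysteine at UGA codons of selenoprotein mRNAs, had 283, 228 and 290 counts in control total and 203, 236 and 242 in siSSB total. The groups overlapped, with a log2 fold change of -0.37 ± 0.23 (adjusted p = 0.484). SeC-TCA-2-1 had 30, 36 and 45 counts against 25, 32 and 22. Scaled to CPM its groups were apart, with -0.62 ± 0.24 (adjusted p = 0.215).

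Summed by anticodon, none of the 9 totals was called in total RNA by edgeR's test, 6 had an unadjusted p under 0.05, and DESeq2 called 4. The totals fell into a range rather than moving by 1 amount. The values nearest to 0 were those of Ser-AGA (-0.23 ± 0.28, adjusted p = 0.742), SeC-TCA (-0.39 ± 0.22, 0.418) and Leu-AAG (-0.55 ± 0.29, 0.38), and these 3 were above 0 with the snoRNA total, at 0.54, 0.31 and 0.12. Leu-CAG had -0.78 ± 0.32 (0.232) and Ser-TGA -0.87 ± 0.29 (0.14). Ser-CGA had -1.20 ± 0.36 (0.112), Leu-TAA -1.37 ± 0.36 (0.0782), Ser-GCT -1.41 ± 0.43 (0.124) and Leu-TAG -1.91 ± 0.56 (0.107). Among the 42 other isoacceptor totals 2 were called lower, with a median of -0.85, close to the median of -0.87 of the 9 totals.

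**Figure D2:**
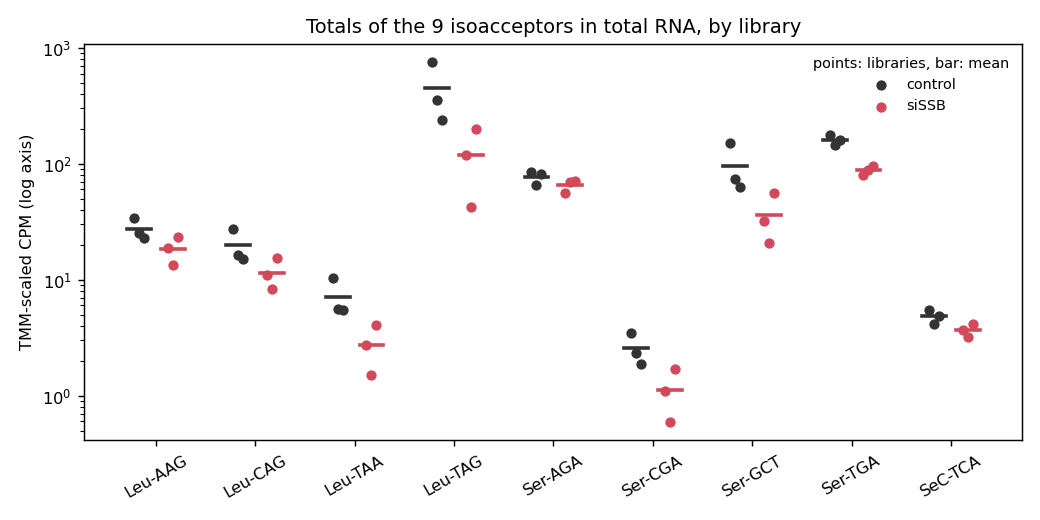
TMM-scaled CPM of each isoacceptor total in the 6 total RNA libraries, on a log axis. Points are libraries and bars are means of 3. The control and siSSB points of Leu-TAA, Leu-TAG, Ser-CGA, Ser-GCT, Ser-TGA and SeC-TCA do not overlap, and those of Leu-AAG, Leu-CAG and Ser-AGA do. With the snoRNA total as the scaling, the changes of Ser-AGA, SeC-TCA and Leu-AAG lie above 0.

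Within an anticodon the members did not all sit together. All 4 Leu-TAA rows and all 3 Leu-TAG rows were apart between groups, with medians of -1.49 and -1.80. Of 8 Ser-GCT rows 4 were apart (median -1.18), and of 10 Ser-AGA rows 1 was, with a median of -0.11. That 1 row was Ser-AGA-5-1, the gene with the short variable region, with 722, 540 and 794 counts in control total and 403, 223 and 467 in siSSB total and a log2 fold change of -0.99 ± 0.34 (adjusted p = 0.157). It is named here after its value was seen.

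In nuclear RNA no member was called by edgeR's test (0 of 43, against 0.349% of all 6873 rows lower), and DESeq2 called 0. Unadjusted, 6 of 43 members had a p under 0.05 by edgeR's test, against 959 of all 6873 rows. In 9 of 43 members (20.9%) all siSSB libraries were below all control libraries, against 9.06% of all rows. The median was -0.43, with 0.08 over all rows and -0.32 over the other tRNA rows, and 34 of 43 members were below 0 (28 with each of library size alone, the small-feature total and the snoRNA total). Without siSSB nuc replicate 2 the median was -0.25. Counts were low in this fraction, and 14 of the 57 rows were not tested.

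Leu-TAG-1-1 was even among the control nuc libraries, with 3210, 3195 and 3207 counts, and had 2618, 2058 and 2076 in siSSB nuc. The groups did not overlap, with a log2 fold change of -0.58 ± 0.27 (adjusted p = 0.347). Leu-TAA-4-1 had 65, 70 and 57 counts against 49, 39 and 50, with -0.53 ± 0.29 (adjusted p = 0.423). Ser-TGA-1-1 lay on the other side of 0, with 491, 464 and 513 counts in control nuc, 836, 742 and 484 in siSSB nuc, and 0.40 ± 0.29 (adjusted p = 0.513). The groups overlapped. SeC-TCA-1-1 had 33, 30 and 15 counts against 24, 8 and 15, and SeC-TCA-2-1 had 1, 3 and 0 counts against 0, 0 and 3, at or under a floor of 3 counts.

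In cytoplasmic RNA 1 of 53 members fell (1.89%, against 0.27% of all 18921 rows and 4.71% of the other tRNA rows). All 53 members were below 0 (52 with library size alone or the small-feature total, 47 with the snoRNA total), with a median of -0.67 against -0.59 for the other tRNA rows and 0.01 for all rows. In 23 of 53 (43.4%) the siSSB libraries were all below the control libraries, against 7.53% of all rows.

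The row called was Leu-TAA-4-1, a second leucine tRNA for UUA codons. It had 171, 125 and 325 counts in control cyto and 62, 69 and 43 in siSSB cyto, with no overlap. Its level fell from 7.17 ± 1.70 to 2.02 ± 0.515 CPM, by 1.83 ± 0.30 on the log2 scale (adjusted p = 0.0493). The call was lost when any 1 of the 6 libraries was left out, with adjusted p from 0.0748 to 0.238. A lncRNA row on the opposite strand held 2080 counts in all against 2036 for Leu-TAA-4-1, so the reads of this locus were counted in both.

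Ser-TGA-1-1 was the highest member in cyto, with 35123, 28555 and 34934 counts in control cyto and 13156, 7970 and 15367 in siSSB cyto. The groups were far apart, from 1223 ± 236.7 to 420.3 ± 125.4 CPM, and the log2 fold change was -1.54 ± 0.30 (adjusted p = 0.0769). The other 3 Ser-TGA rows had values between -0.73 and -0.61 there, and the TGA total, most of whose counts were of this gene, had -1.37 ± 0.30 (adjusted p = 0.0948). Its reads were also counted in a lncRNA row on the opposite strand, with 179080 counts against 179032.

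Leu-TAG-1-1 was uneven in cyto, with 4952, 4228 and 21755 counts in control and 4875, 7867 and 3638 in siSSB. The groups overlapped (-0.78 ± 0.48, adjusted p = 0.835), and without control cyto replicate 3 the value was 0.04. All 8 Ser-GCT rows were apart between the groups, with a median of -0.79. Ser-GCT-2-1 had 1486, 1199 and 3659 counts against 964, 878 and 805 (-1.23 ± 0.30, adjusted p = 0.162). The chromosome 6 copy of Ser-CGA-2-1, at chr6:27209849-27209930, had 86, 99 and 163 counts against 26, 54 and 39, and all siSSB libraries were lower (-1.57 ± 0.32, adjusted p = 0.0873). SeC-TCA-1-1 had 713, 427 and 699 counts against 510, 420 and 666, with overlap (-0.28 ± 0.29, adjusted p = 0.915).

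None of the 9 totals was called in cyto by edgeR's test, 5 had an unadjusted p under 0.05, and DESeq2 called 3. Ser-CGA had 221, 179 and 372 counts against 114, 111 and 112 (-1.22 ± 0.25, adjusted p = 0.0741), and Leu-TAA 495, 335 and 759 against 253, 200 and 262 (-1.18 ± 0.26, adjusted p = 0.101). The 114, 111 and 112 counts of Ser-CGA in siSSB cyto lay close together, all under the lowest control count. In nuc none was called by edgeR's test or by DESeq2, 1 had an unadjusted p under 0.05, and values ran from -0.73 to 0.31.

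For reference, the vault RNA VTRNA1-1, a small Pol III RNA that La binds, fell in total, nuc and cyto RNA by 2.25, 1.80 and 1.83 on the log2 scale (adjusted p = 0.0128, 0.00474 and 0.0342). Of 10 La-bound Pol III RNAs that are not tRNAs 3, 2 and 2 fell in total, nuc and cyto RNA. RPPH1 and RMRP, the RNAs of RNase P and RNase MRP, were called in none. Of the 5 tested Leu-CAA rows and the 4 mitochondrial leucine and serine tRNAs, which are not Pol III products, 0 were called in each of the 3 comparisons.

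The nucleus was next compared with the cytoplasm in control cells. Of 53 members 38 were lower in nuc (71.7%, against 14.1% of all 26774 rows and 77.6% of other tRNA rows), and 1 was higher (1.89%, against 9.21% of all rows). The median was -1.64, with -2.36 for the other tRNA rows and -0.27 for all rows. These are values relative to the TMM scale. Scaled by library size alone, to the small-feature total or to the snoRNA total, the median of all rows was -4.33, -3.15 and -6.13 and all 53 members were called lower, so the position of 0 rests on the scale chosen. Against the median of all rows, members were lower by 1.36 to 1.48 on the log2 scale under all 7 scalings and tests. This range had to be narrow, because a change of scale moves all rows by nearly the same amount.

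Serine AGA and TGA tRNAs, which read UCU, UCC, UCA and UCG codons between them, were low in nuc relative to cyto. All 10 Ser-AGA and all 4 Ser-TGA rows were lower in nuc, with medians of -4.07 and -4.18 and Ser-AGA-5-1 nearest to 0 at -2.05. The lowest member was 1 of the Leu-CAG-1-1 copies, at -4.92, with 4 counts over the 3 nuc libraries and 479 over the 3 cyto libraries, and is named after its value was seen. Ser-TGA-1-1, with 491, 464 and 513 counts in nuc and 35123, 28555 and 34934 in cyto, had a log2 difference of -4.12 ± 0.33 (adjusted p = 5.95e-12). Ser-AGA-3-1, with 38, 23 and 8 counts in nuc and 1918, 1806 and 1736 in cyto, had -4.43 ± 0.40 (adjusted p = 1.28e-10). Ser-AGA-2-6 at chr6:26327589-26327670 had 68, 45 and 40 against 2161, 2074 and 2208, with -3.48 ± 0.33 (adjusted p = 4.00e-10).

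SeC-TCA-1-1 was also lower in nuc, with 33, 30 and 15 counts against 713, 427 and 699 (-2.62 ± 0.35, adjusted p = 3.28e-07). Of the Leu-CAG rows 8 of 9 were lower, with a median of -3.73, and of the Leu-AAG rows 6 of 9, with a median of -1.19. Leu-TAG and Ser-GCT rows lay near the middle of all rows, with medians of -0.44 and -0.64, and 1 of 3 and 2 of 8 were lower. Leu-TAG-1-1 had 3210, 3195 and 3207 counts in nuc and 4952, 4228 and 21755 in cyto, a difference of 0.47 ± 0.35 (adjusted p = 0.364). This value rested on 1 library, since without control cyto replicate 3 it was 1.20 with an adjusted p of 0.000393, and it was below 0 with the miRNA total (-0.09) and with no filter (-0.03), as it was with the 3 scalings that lowered all rows.

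The 1 member higher in nuc was the chromosome 15 copy of Ser-GCT-3-5, with 314, 415 and 326 counts in nuc and 424, 361 and 919 in cyto. The CPM ranges did not overlap, and the difference was 1.37 ± 0.31 (adjusted p = 0.000925). It turned to -2.76 with library size alone, -1.56 with the small-feature total and -4.56 with the snoRNA total, and the call was lost with the miRNA total (0.90) and with no filter (0.88).

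**Figure D3:**
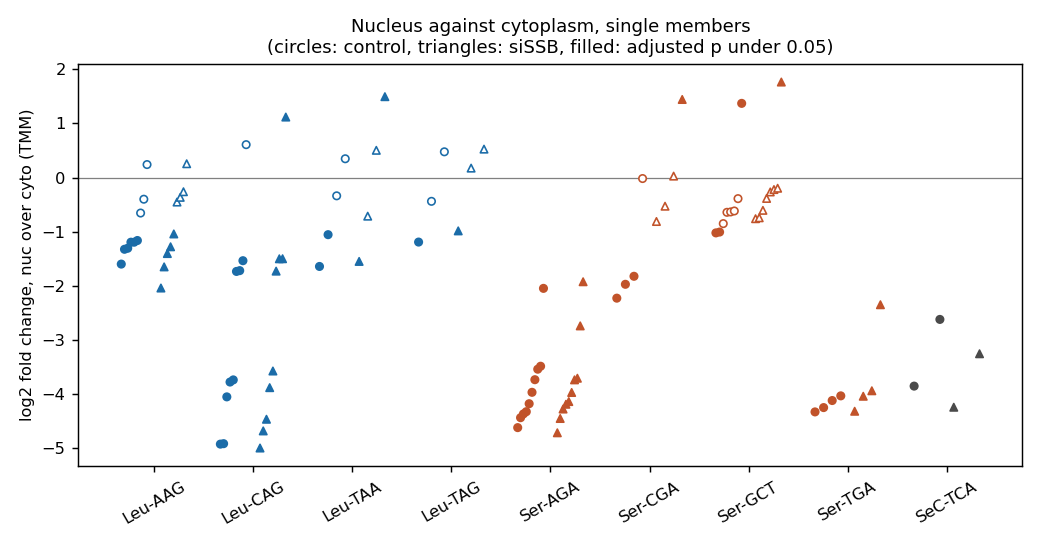
Log2 difference, nuc over cyto on the TMM scale, for each tested member by anticodon in control (circles) and siSSB cells (triangles). Filled points had an adjusted p under 0.05. Ser-AGA, Ser-TGA, SeC and part of Leu-CAG lie lowest, and the points above 0 lie below it with library size alone, the small-feature total or the snoRNA total.

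Of the 9 totals 5 were lower in nuc in control cells. Ser-TGA had 617, 530 and 573 counts in nuc and 40903, 34342 and 40563 in cyto (-4.13 ± 0.32, adjusted p = 6.31e-12). Ser-AGA had 526, 321 and 259 against 18530, 18207 and 19299 (-3.76 ± 0.33, adjusted p = 5.81e-11). Of these, Ser-AGA-5-1 gave 113, 56 and 65 in nuc and 968, 723 and 2297 in cyto. SeC-TCA had -2.72 ± 0.35 (1.80e-07), Leu-CAG -1.41 ± 0.30 (0.000372) and Leu-AAG -0.96 ± 0.29 (0.0117). The Leu-AAG call was lost without control nuc replicate 1 or 3 (adjusted p = 0.0585 and 0.0649). Ser-CGA (-0.76, 0.0881), Ser-GCT (-0.35, 0.421), Leu-TAA (-0.30, 0.526) and Leu-TAG (0.39, 0.453) were not called. Of the other isoacceptor totals 37 of 41 were lower, with a median of -2.07.

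The same comparison in siSSB cells gave 31 members lower in nuc (58.5%, against 14.5% of all 26274 rows) and 4 higher (7.55%, against 10.8%), with a median of -1.50. The other tRNA rows had 67.7% lower and 5.25% higher. The same 5 totals were lower, with Ser-TGA at -2.61 ± 0.32 (adjusted p = 2.66e-07), Ser-AGA at -3.68 ± 0.35 (2.78e-09), SeC-TCA at -3.33 ± 0.43 (4.76e-07), Leu-CAG at -1.06 ± 0.32 (0.0156) and Leu-AAG at -0.97 ± 0.31 (0.0196). The Leu-CAG and Leu-AAG calls were both lost without siSSB nuc replicate 2 (adjusted p = 0.0747 and 0.0806) or siSSB nuc replicate 3 (0.0731 and 0.0959). The Leu-CAG call was also lost without siSSB cyto replicate 3 (0.0995), and the Leu-AAG call without siSSB cyto replicate 1 (0.0811).

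The 4 members higher in nuc in siSSB cells were the chromosome 15 Ser-GCT-3-5, Leu-TAA-4-1, the chromosome 6 Ser-CGA-2-1 and the Leu-CAG-2-25 copy at chr16:57299951-57300033, the last named after its value was seen. Ser-GCT-3-5 had 330, 387 and 255 counts in nuc and 377, 340 and 277 in cyto (1.76 ± 0.31, adjusted p = 7.54e-05). Leu-TAA-4-1 had 49, 39 and 50 against 62, 69 and 43 (1.49 ± 0.35, adjusted p = 0.00199), and Ser-CGA-2-1 had 25, 43 and 28 against 26, 54 and 39 (1.44 ± 0.37, adjusted p = 0.00426). Leu-CAG-2-25 had 168, 146 and 114 against 234, 194 and 260 (1.12 ± 0.33, adjusted p = 0.0115). No member was higher with 3 other scalings, where these first 3 values were -2.05, -2.37 and -2.33 with library size alone, -0.94, -1.25 and -1.23 with the small-feature total, and -4.12, -4.42 and -4.36 with the snoRNA total. The Ser-CGA-2-1 call was lost without siSSB cyto replicate 1 (1.05, adjusted p = 0.0694) and with no filter (1.05, 0.0828).

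Whether the effect of siSSB differed between nuc and cyto was tested as an interaction over the 12 fraction libraries. By edgeR's test 0 of 53 members were called, against 0.0133% of all 37493 rows, and DESeq2 called 0. Unadjusted, 5 of 53 members had a p under 0.05 by edgeR's test, against 1836 of all 37493 rows. Of these 5, 3 were among the 4 Ser-CGA rows, which also held the largest difference of all members, 2.27, nuc over cyto. Counts were low there, with 46, 37 and 31 for the sum of the Ser-CGA rows in control nuc. Ser-TGA-1-1 had the largest difference among named members, 1.78 ± 0.43, with an unadjusted p of 0.000131 and an adjusted p of 0.504. It passed the threshold with library size alone (adjusted p = 0.0104), with the small-feature total (0.0175), without control cyto replicate 3 (0.0176) and without siSSB cyto replicate 3 (0.0214). Of the totals, Ser-TGA had 1.53 ± 0.42 (adjusted p = 0.889) and Ser-CGA 1.30 ± 0.46 (0.955), and the other 7 lay between -0.61 and 0.66.

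Across the 53 members the nuc over cyto difference in control cells and the siSSB over control value in total RNA, which share no library, had a Pearson r of -0.68 and a Spearman rho of -0.70. Rows of like sequence share reads, so the rows are not independent. With 1 row for each of 34 sequences r was -0.65, and without the 14 Ser-AGA and Ser-TGA rows it was -0.52 (n = 39). Over the 9 totals r was -0.76, and over the 41 other isoacceptor totals it was -0.40. Differences in abundance and base composition between members were not separated from this relation, which is given as a description.

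**Figure D4:**
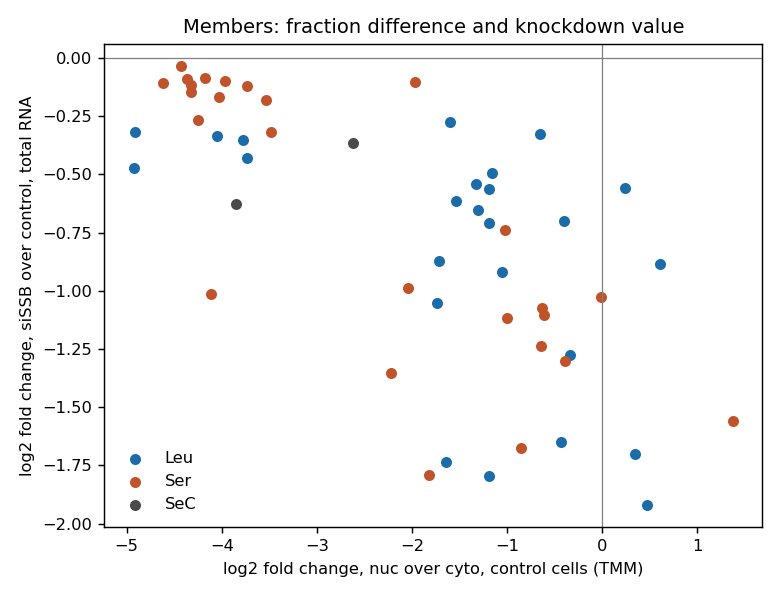
Each point is 1 of 53 members, with the log2 difference of nuc over cyto in control cells on the horizontal axis and the log2 fold change of siSSB over control in total RNA on the vertical axis (both TMM-scaled). Ser-AGA and Ser-TGA rows lie in the upper left, apart from Ser-TGA-1-1 and Ser-AGA-5-1, and Leu-TAG-1-1 lies at the lower right with 0.47 and -1.92. With library size alone 30 of the 53 points lie below 0 on the vertical axis, and all 53 lie below 0 on the horizontal axis.

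The counts of 12 Ser-AGA and Ser-TGA rows, all but Ser-AGA-5-1, Ser-AGA-6-1 and Ser-TGA-1-1, were nearly the same in cyto. They ranged from 1845 to 2161, 1806 to 2074 and 1736 to 2208 in the 3 control cyto libraries, so the highest row was 1.17, 1.15 and 1.27 times the lowest. In control nuc the same rows ranged from 22 to 68, 17 to 45 and 8 to 40. These 12 genes share their first 24 nt, and how reads with several matching genes were placed is not given in the sources used here. Their even cytoplasmic counts therefore do not show that each gene gave an equal part, and none of the 12 is evidence independent of the others.

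Copies of 1 sequence have the same gene letters in hg38 and can differ in their flanks. Sequence differences between copies in HEK293T cells were not examined. In control cells the 7 Leu-CAG-1-1 copies were uneven. The copy at chr1:161530342-161530424 had 41.0% of the counts of the set in cyto (2165 counts) and 65.4% in nuc (168 counts). The 5 copies between chr1:161441533 and 161471205 lie close together and had 8.7% to 9.9% each in cyto. Their trailers differ from that of the first copy. The 7 copies have 4 distinct row sequences, so reads within the row cannot separate all 5 of this group.
Leu-CAG-1-1 trailer at chr1:161530342-161530424: atatgtgTTTTccgtccttacTTTT
Leu-CAG-1-1 trailer in the group of 5: agccgaccTTTTggcccgcccgccg

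Other sets showed the same kind of shift. Of the 3 Ser-GCT-3-5 copies, that on chromosome 15 had 27.9% in cyto (1704 counts) and 60.3% in nuc (1055 counts), and in siSSB cells 30.2% and 63.8%. Of the Leu-CAG-2-25 pair, the copy at chr16:57299951-57300033 had 44.9% in cyto and 78.2% in nuc. The 3 Leu-AAG-1-3 copies had like shares in control cells, with 46.0%, 43.5% and 10.6% in cyto and 43.7%, 45.1% and 11.2% in nuc. They have 2 distinct row sequences, since the first 2 copies have the same letters, flanks included. No read within the row can tell these 2 apart, so their like shares say nothing of either gene. In siSSB cells the 3 copies had 45.0%, 44.7% and 10.3% in cyto and 36.6%, 43.8% and 19.6% in nuc, the last being 90 counts. Among the 6 Ser-AGA-2-6 copies, that at chr6:26327589-26327670 had 18.4% in cyto and 25.9% in nuc. The chromosome 17 copy of Ser-GCT-3-5 overlaps the microRNA gene MIR4521, whose row held 3383 counts against 6158, so part of its counts may belong to either row.

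**Figure D5:**
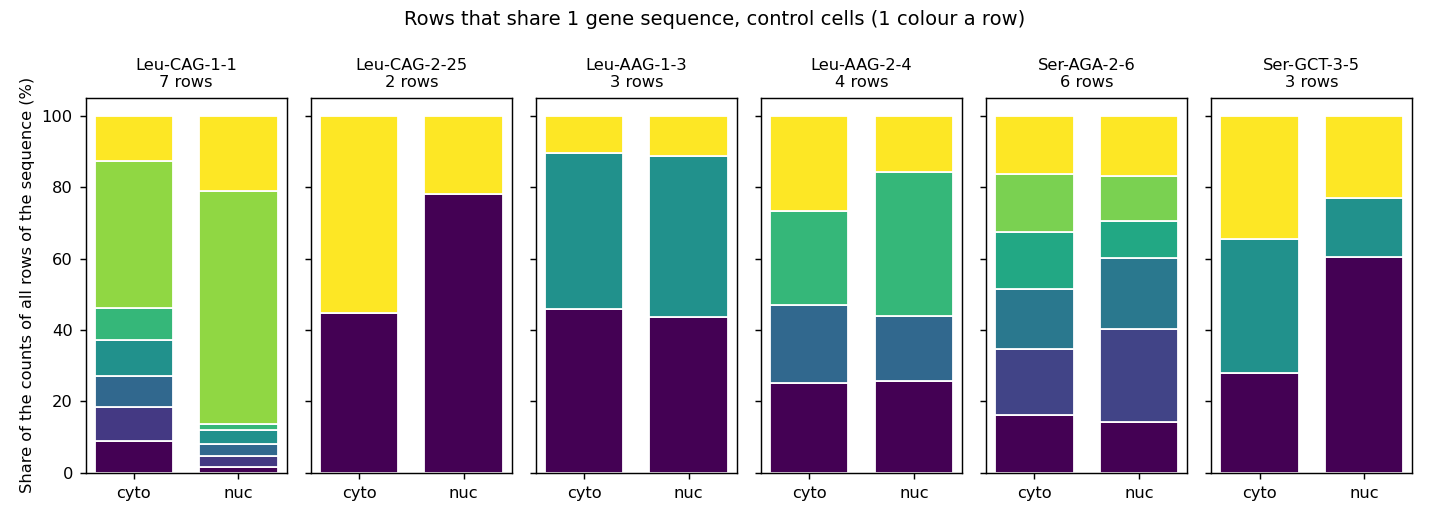
Share of each copy in the counts of all copies of 1 gene sequence, summed over 3 control libraries, in cyto and nuc; 1 colour is 1 copy, stacked in order of chromosome name and position. The second segment from the top of Leu-CAG-1-1 is the copy at chr1:161530342 (41.0% and 65.4%). The lowest segment of Ser-GCT-3-5 is the chromosome 15 copy (27.9% and 60.3%). The 3 segments of Leu-AAG-1-3 stay alike, but 2 of these rows have the same letters and cannot be told apart.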

How the data were processed

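Small RNA libraries were made from HEK293T cells with a commercial small RNA kit, after extraction with a kit that separates nuclear and cytoplasmic RNA. As deposited, the authors' table gives raw read counts for each noncoding RNA row, not normalized. The submitters' processing notes name Bowtie2, bedtools and hg38. Their settings, the placement of reads with several matches and the use of strand are not given in the sources used here, and reads of overlapping rows were counted in each row. Each tRNA row was taken to reach 25 nt beyond the gene on both sides. Of 1446 other small RNAs 31.5% had exactly such ends and 99.0% lay on the strand annotated in GENCODE for hg38. Groups and replicate numbers came from the titles.

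Each comparison was fitted over all rows in R 4.3.3 with edgeR 4.0.16 and limma 3.58.1, on the raw counts of its own 6 libraries, by the quasi-likelihood test with filterByExpr and TMM factors. The interaction used the 12 fraction libraries. P-values are two-sided and were adjusted by the Benjamini-Hochberg method over all rows tested, isoacceptor totals being added to the same fit, and an adjusted p under 0.05 counted as called. Standard errors follow from the F statistic. With 3 against 3 libraries an exact permutation test cannot go below 0.1 and none was used. Alternatives were other scalings (library size, RLE, and totals of snoRNAs, miRNAs or small features), no filter beyond 1 count, DESeq2 1.42.0, a replicate block, each library left out and a threshold of 0.01. The fit was also run on simulated counts, with the same spread for all rows and changes larger than any knockdown value of a member. That run therefore does not bear on the knockdown calls. Sequences were read from the reference with Python 3.11.15 and numpy 2.4.6, and figures drawn with matplotlib 3.10.9.

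The members named are the SeC rows, the member with the most counts of each anticodon, members called in a knockdown comparison (over 8, the 4 with the largest change per direction), and per nucleus and cytoplasm comparison the 3 higher and 3 lower with the largest change and a mean of at least 50 counts, with copies named once. Members, lists and tests were chosen with earlier results of these data known. The titles do not say that libraries of 1 replicate number come from the same culture. Same-numbered deviations of control cyto and control nuc libraries had weak correlations of 0.112, 0.142 and 0.167. That of cyto replicate 1 with nuc replicate 2 was 0.098. In that comparison the replicate block changed no count by over 1.5 times (39 members called without it, 40 with it). Reads are not independent molecules, and the floor of 3 counts covers counting error only.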

Additional observations from a re-analysis of the deposited data

How the results depend on the processing

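Calls among the long variable arm tRNAs were few after knockdown and moved with the processing, and the cause was not tested. In total RNA 3 members were called, against 1 with the snoRNA total, 36 with the miRNA total, 15 with no filter and 8 with DESeq2. The count was 0 at an adjusted p under 0.01 and 0 to 11 with 1 library left out. Of all 13883 rows 186 were called, 691 with the snoRNA total and 2117 with the miRNA total. No filter called 626 of 114675 rows and DESeq2 324 of 6610. Of 376 other tRNA rows 40 were called, 9 with the snoRNA total and 290 with the miRNA total. No filter called 127 of 424 such rows and DESeq2 82. Of the 9 isoacceptor totals 0 were called, against 1 with the snoRNA total, the small-feature total or library size alone, 8 with the miRNA total, 4 with no filter or DESeq2 and 0 to 4 with 1 library left out (2 without control total replicate 3, 4 without siSSB total replicate 3). In cyto 1 member was called, against 4 with no filter and 5 with DESeq2, which also called 3 totals against 0. None was called with RLE factors, library size alone, the small-feature total or the snoRNA total. The same held at an adjusted p under 0.01 and with any library left out (0 to 0). Of all rows in cyto 55 of 18921 were called, 248 of 126681 with no filter and 157 of 18921 with DESeq2. Of other tRNA rows 18 of 382, 49 of 429 and 45 of 382 were called, in the same order. In nuc 0 members were called under each alternative run. Between nuc and cyto, the scalings to small features, to snoRNAs and by library size alone each gave 9 of 9 totals lower in control and in siSSB cells (5 in each with TMM) and 53 members in siSSB cells (35 with TMM, 30 with the miRNA total and 31 to 34 with 1 library left out). In siSSB cells the scalings to small features, to snoRNAs and by library size alone called 25575, 25832 and 25875 of all 26274 rows. In control cells 4 to 6 totals were called with 1 library left out. In siSSB cells 3 totals were called with the miRNA total and 3 to 5 with 1 library left out (3 without siSSB nuc replicate 2 or 3). The interaction called 0 members, against 1 (Ser-TGA-1-1) with library size alone or the small-feature total and 0 to 1 with 1 library left out (1 without control cyto or siSSB cyto replicate 3), and 1 total with library size alone. Whether equal replicate numbers mark paired libraries is not known, and outside control nuc against cyto not every library correlated best with its own number. With the replicate block 3 members were called in total RNA (the chromosome 6 Leu-TAA-3-1 not among them), 0 in nuc, 0 in cyto and 34 in siSSB nuc against cyto, and 1 isoacceptor total (Leu-TAA) in total RNA, and the block turned the interaction of tRNA-Leu-TAG-1-1 to -0.019. It changed the count of calls by over 1.5 times in no other comparison. Members do not overlap each other, so sums over all rows equal the totals used.

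Values that changed sign are on the log2 scale. In total RNA the Ser-AGA total was 0.36 when scaled by library size alone, 0.54 to the snoRNA total and 0.36 to the small-feature total, the SeC-TCA total was 0.15, 0.31 and 0.15, and the Leu-AAG total was 0.12 with the snoRNA total. In nuc the Leu-CAG total was 0.26, 0.20 and 0.20, and 0.096 with the miRNA total. In cyto the SeC-TCA total was 0.11 with the snoRNA total, and Leu-TAG-1-1 ranged from -1.23 to 0.044 with 1 library left out. For nuc over cyto in control cells, the same 3 scalings in that order gave -3.69, -5.44 and -2.49 for the Leu-TAG total (-0.16 with the miRNA total and -0.11 with no filter), -3.60, -5.34 and -2.40 for Leu-TAG-1-1 (-0.088 and -0.029) and -2.76, -4.56 and -1.56 for the chromosome 15 Ser-GCT-3-5. In siSSB cells they gave -3.54, -5.63 and -2.41 for the Leu-TAA total (-0.041 with no filter), -3.38, -5.41 and -2.28 for Leu-TAG, -3.27, -5.34 and -2.16 for Ser-CGA and -3.78, -5.86 and -2.66 for Ser-GCT (-0.29 with no filter). Among members they gave -2.37, -4.42 and -1.25 for Leu-TAA-4-1, -3.32, -5.34 and -2.21 for Leu-TAG-1-1, -2.33, -4.36 and -1.23 for the chromosome 6 Ser-CGA-2-1 and -2.05, -4.12 and -0.94 for the chromosome 15 Ser-GCT-3-5. Interaction values near 0 turned too. The Leu-AAG total was -0.046 with RLE factors, -0.047 with DESeq2 and ranged from -0.13 to 0.16 with 1 library left out, the Leu-TAG total from -0.52 to 0.52, the Ser-AGA total from -0.11 to 0.33 and Leu-TAG-1-1 from -0.62 to 0.54, the last being -0.0076 with the snoRNA total.

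Depth limits the nuclear values: SeC-TCA-2-1 had at most 3 counts in a nuc library. Rows of 1 gene sequence cannot be told apart by reads that lie within the gene. Precursor, mature tRNA and fragments were counted together in each row. The side of 0 between fractions rests on the scale chosen.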
